A study of Mus musculus with 8 samples.

Results

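The IL-6 family cytokines and receptors were followed in mouse ileum, the final stretch of the small intestine, after induction of the kinase TNK1. The family was taken as 9 genes out of 35715 gene names on the array: the 4 ligands Il6, Il11, Lif and Osm, and the 5 receptor genes Osmr, Lifr, Il6ra, Il6st and Il11ra1. Members were the non-control probes carrying one of these names, 11 of 55681 probes. This rule uses no measured value, but the names were chosen with earlier results of these data known. All mice were female and carried, per the strain label, Rosa26rtTA/+ and Hprt Myc-Tnk1tg: rtTA is an activator of transcription that needs doxycycline, and the Myc-tagged Tnk1 transgene lies at the Hprt locus. One group received 50 µg of doxycycline per g of body weight in 100 µl by intraperitoneal injection, the other 100 µl of 0.9% NaCl, and ileum was taken 24 hours later. Each group has 4 arrays, hybridised with labelled total RNA of the whole tissue. The age of the mice is not given in the labels, the source name of the saline samples reads WT although their strain label carries the transgene, and doxycycline was not given to mice lacking the transgene, so the drug and the transgene cannot be told apart. The labels do not say that each array is a separate animal, and the p-values then cover only the spread among these samples, which may be technical.

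The cytokines of the IL-6 family share the receptor chain gp130, encoded by Il6st. IL-6 and IL-11 first bind a receptor of their own, IL-6Rα or IL-11Rα, which then engages gp130, whereas LIF signals through a pair of LIFR and gp130 and mouse oncostatin M mainly through a pair of OSMR and gp130. The pair activates Janus kinases and chiefly the transcription factor STAT3, and SOCS3, made in response, binds gp130 and ends the signal. In the gut this family is known for roles in inflammation and in the repair of the epithelium.

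The probes read short stretches of these transcripts, and the stretch decides which transcript form is seen. The first 30 of 60 bases are shown for Il6, Osmr, Il6ra, Il6st and the 3 Lifr probes, since the results turn on them, with mm9 positions from the array annotation.
Il6, chr5:30346367-30346426: ctgttacctagccagatggtttcttggaat
Osmr, chr15:6763686-6763745: attgcagatgctctgtttacattttcttgt
Il6ra, chr3:89674054-89674113: aggaccaagtgcagtaacggtagcccaaac
Il6st, chr13:113296586-113296645: atcttctcacagtaagcagtctagttatgg
Lifr probe 1, chr15:7141150-7141209: agaacaaaccaaatgactaaccaggtcacc
Lifr probe 2, chr15:7147319-7147378: catagatgatgtaaatagcctaagacactg
Lifr probe 3, chr15:7135072-7135131: taaaaacttggaaatgtatccaggcctaac
The Lifr probes differ in the transcripts that the array assigns to them, with probes 1 and 2 placed on one Lifr RefSeq transcript and probe 3 on another. Exons and untranslated regions of mm9 are not given here. The Il11ra1 probe (chr4:41716285-41716344) is also assigned to Gm13305, a near-identical copy, so its signal can come from either gene.

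The array values bear on these members through their brightness. The level used throughout is the log2 intensity minus the 75th percentile of its array. The lowest level counted as well above background by the scanner software was -4.90 to -4.51 on the doxycycline arrays and -3.07 to -2.57 on the saline arrays, so a dim probe could be measured with doxycycline at a level where saline gives none. The 5′-side Tnk1 probe was 6.92-fold higher with doxycycline (0.64 ± 0.23 against -2.15 ± 0.40, SD, n = 4 each, limma adjusted p = 0.00042 over kept probes). The other Tnk1 probe read 2.13 ± 0.23 and 2.58 ± 0.26, with overlapping groups and a difference of -0.45 that did not pass (limma adjusted p = 0.143), so the 2 probes disagree. The transgene locus gene Hprt was 64.6-fold higher. The ileal bile acid binding protein Fabp6, which marks ileal enterocytes, stood at 9.25 ± 0.26 with doxycycline and 9.45 ± 0.21 with saline. All 8 arrays lie on 1 slide with doxycycline in row 1 and saline in row 2, and the row cannot be told apart from the treatment.

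Of the 9 members 8 passed the filter on dim probes, Osm being the exception. Among the 5 members measured in both groups, all of them receptor genes, 3 rose with doxycycline (Osmr, Il6ra and Lifr), 0 fell and 2 did not pass. Of all 21362 genes tested, 5.94% were called higher and 7.90% lower, and the median difference over them was 0.02. The dim ligands Il6 and Lif were called higher too, but like Il11 they passed the filter only through the doxycycline arrays. They therefore add nothing to a count of the family.

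**Figure D1:**
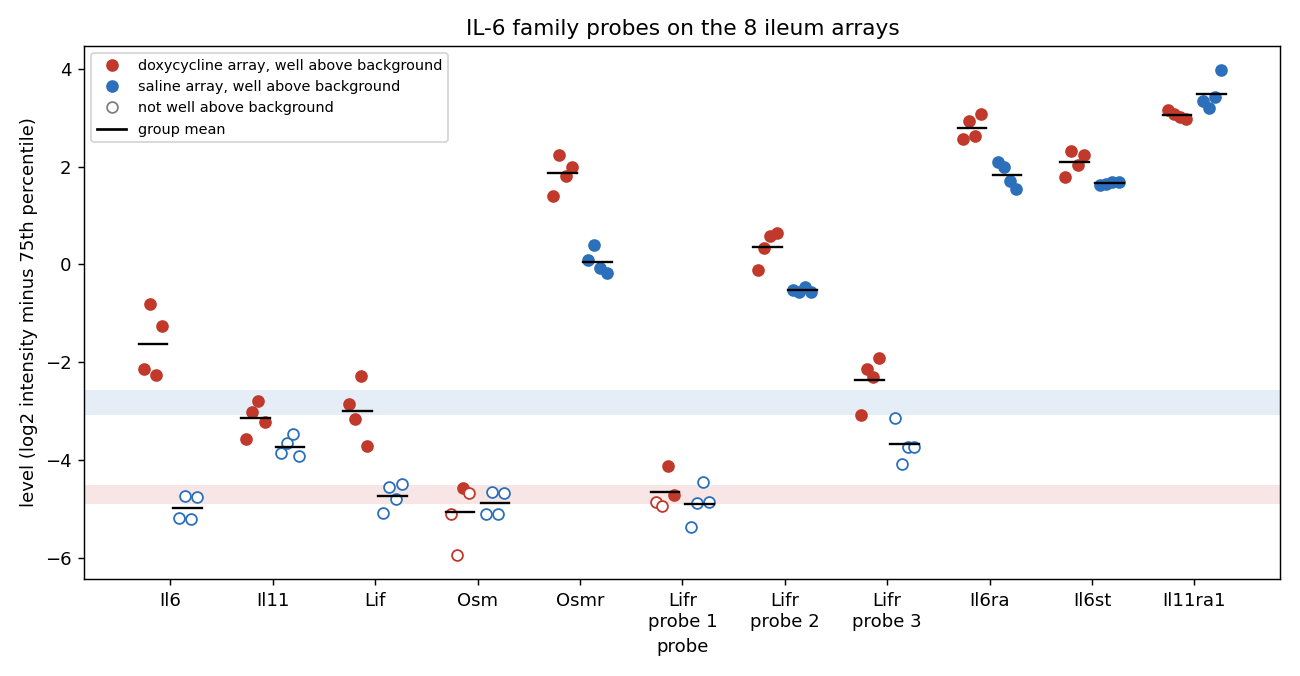
Level of each member probe on each of the 8 arrays (log2 intensity minus the 75th percentile of the array), with group means as bars, open circles where the probe was not well above background, and shaded bands for the range over arrays of the lowest level well above background (blue for saline, red for doxycycline). Osmr, Il6ra, Il6st and Lifr probe 2 lie higher on every doxycycline array than on any saline array, Il11ra1 lies lower, and all saline circles of Il6, Il11, Lif and Osm are open.

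Il6, which encodes the cytokine that names the family, read -2.14, -0.82, -2.27 and -1.25 on doxycycline arrays 1 to 4, and -5.19, -4.73, -5.20 and -4.76 on saline arrays 1 to 4. All 4 saline values are surrogates that the scanner software puts in place of a spot it cannot tell from noise. The doxycycline arrays were all well above background, with arrays 2 and 4 the highest, and the groups did not overlap. Set against the lowest level counted as well above background on each saline array, Il6 was at least 2.31-fold higher with doxycycline (group means -1.62 ± 0.70 and -4.97 ± 0.26, SD, n = 4 each). That level is no strict limit, since a probe can lie above it without being counted, as Osm did on doxycycline 4. The limma fit gave adjusted p = 0.00062, but it takes the surrogates and their small spread as measured values, so it is no test of the bound. The raw spot intensity above local background was 63.4, 194.9, 82.5 and 135.2 with doxycycline and 20.0, 37.0, 11.3 and 14.5 with saline, again without overlap. With normexp background correction the difference was 1.12 (limma adjusted p = 0.00818), a smaller size than the bound, and with every array raised to the highest of the 8 detection levels, an alternative chosen after seeing the data, the call was lost (difference 0.95, limma adjusted p = 0.119).

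Lif, the ligand of the LIFR and gp130 pair, read -2.85, -3.17, -2.27 and -3.71 with doxycycline and -5.08, -4.55, -4.79 and -4.48 with saline, and no saline array showed it well above background. The mean of the doxycycline values lay below the mean of the lowest levels counted as well above background on the saline arrays, so no fold is given. The limma fit called it (adjusted p = 0.00727), and the call was lost with normexp (difference 0.25, adjusted p = 0.266) and with a common floor at the median (0.79, adjusted p = 0.0944) or highest detection level (0.07, adjusted p = 0.567). Raw intensity above local background overlapped, at 38.7, 42.9, 75.2 and 27.4 with doxycycline and 32.7, 33.8, 21.3 and 16.5 with saline.

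Il11, the ligand of IL-11Rα, read -3.57, -3.02, -2.78 and -3.22 with doxycycline and -3.86, -3.65, -3.47 and -3.91 with saline. No saline array was well above background, the groups overlapped, and it did not pass (limma adjusted p = 0.0895). The call was made with array weights (0.62, adjusted p = 0.0359) and without doxycycline 1 (0.72, adjusted p = 0.0391), and the sign turned with normexp (-0.095, adjusted p = 0.620). Osm, encoding oncostatin M, was well above background on 1 of 8 arrays, doxycycline 3 at -4.56, and was not tested.

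Osmr, the oncostatin M receptor, gave the largest rise among the 5 members measured in both groups. It read 1.40, 2.23, 1.81 and 1.999 with doxycycline and 0.09, 0.39, -0.07 and -0.18 with saline. Every doxycycline array stood above every saline array. The difference was 1.80 (SE 0.21, 95% interval 1.32 to 2.28), or 3.48-fold (interval 2.49 to 4.87), with limma adjusted p = 0.00138. It stayed between 1.65 and 1.95 and past the threshold in all 19 alternatives run. An exact two-sided permutation test gave p = 0.0286, the smallest that 4 against 4 allows. The same smallest p held for Il6ra, Lifr, Il6st and Il11ra1, whose groups likewise did not overlap. Among all genes tested, 8.83% had every doxycycline array above every saline array and 13.0% had the opposite.

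Il6ra, encoding the IL-6 binding receptor, read 2.56, 2.92, 2.63 and 3.07 with doxycycline and 2.09, 1.99, 1.71 and 1.53 with saline. The groups did not overlap, the nearest arrays being doxycycline 1 and saline 1. The difference was 0.97 (SE 0.19, 95% interval 0.54 to 1.39), or 1.95-fold, with limma adjusted p = 0.0130. The call was lost when saline 2 and saline 4 were both left out (difference 0.90, adjusted p = 0.0513).

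Lifr, the receptor chain for LIF, was read most brightly by probe 2. This probe read -0.12, 0.33, 0.57 and 0.64 with doxycycline, and -0.53, -0.57, -0.47 and -0.56 with saline. The saline arrays lay within a narrow band and doxycycline 1 was the closest to it. The difference was 0.88 (SE 0.19, 95% interval 0.46 to 1.31), or 1.85-fold, with limma adjusted p = 0.0173. The call was lost without doxycycline 3 (0.81, adjusted p = 0.0558), without saline 1 (0.89, adjusted p = 0.0524) and without saline 2 and 4 together (0.85, adjusted p = 0.0760).

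The other Lifr probes gave dimmer readings of the gene. Probe 3 read -3.07, -2.14, -2.31 and -1.91 with doxycycline and -3.14, -4.07, -3.72 and -3.74 with saline, where 0 of 4 arrays were well above background. Set against the lowest level counted as well above background on each saline array, it was at least 1.38-fold higher with doxycycline. Raw intensity above local background overlapped, at 34.4, 83.2, 83.0 and 86.3 with doxycycline and 62.5, 54.3, 32.9 and 23.9 with saline. Levels with normexp overlapped too, at -1.754 for doxycycline 1 and -1.753 for saline 1, so the bound depends on the background correction. The limma fit over the kept probes, of which 6.14% were called higher, gave adjusted p = 0.0210 from saline values below background, which is no test of that bound. Probe 1, well above background on 2 of 4 doxycycline arrays and on none with saline, was not tested.

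Il6st, encoding the shared chain gp130, read 1.79, 2.32, 2.03 and 2.23 with doxycycline and 1.63, 1.65, 1.69 and 1.68 with saline. The groups did not overlap, but doxycycline 1 came close to the saline arrays. The difference was 0.43 (SE 0.16, 95% interval 0.08 to 0.78), or 1.35-fold, and did not pass (limma adjusted p = 0.0984). It passed with array weights (0.45, adjusted p = 0.0292) and without doxycycline 1 (0.53, adjusted p = 0.0458).

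Il11ra1, encoding the IL-11 receptor, was the one receptor gene with a lower mean under doxycycline. Its probe read 3.16, 3.08, 3.02 and 2.97 with doxycycline and 3.33, 3.19, 3.42 and 3.97 with saline. Every doxycycline array stood below every saline array, by little for saline 2. The difference was -0.42 (SE 0.19, 95% interval -0.85 to 0.01) and did not pass (limma adjusted p = 0.166), nor did it in any alternative. In bulk tissue fewer cells of a type and less RNA per cell cannot be told apart, for this and every other value here.

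Doxycycline 1 had the lowest level of the 4 doxycycline arrays for 4 of the 5 receptor genes (Osmr, Lifr, Il6ra and Il6st) and the highest for Il11ra1. Doxycycline 2 had the highest level of Osmr and Il6st, and doxycycline 4 that of Il6ra and Lifr.

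The ligand-binding receptors were then set against the shared chain, by taking each receptor's level minus that of Il6st on the same array and comparing the groups. Osmr changed by 1.37 more than Il6st (SE 0.20, 95% interval 0.93 to 1.81, limma adjusted p = 0.00224). On doxycycline arrays 1 to 4 this quantity was -0.39, -0.10, -0.22 and -0.23, and on saline arrays -1.54, -1.26, -1.76 and -1.86, with no overlap. Measured this way, 2.48% of 21361 genes changed upward of Il6st and 24.2% fell below it at the same threshold. For Il6ra the interval was 0.09 to 0.98 (0.54, limma adjusted p = 0.0736) and for Lifr 0.03 to 0.88 (0.45, adjusted p = 0.103), so neither passed with limma. The groups did not overlap in this quantity for Il6ra and Lifr (upward) or Il11ra1 (downward) either. The exact two-sided permutation p was 0.0286 for each of the 4 receptors, the smallest possible. The share of all genes without overlap in this quantity was not computed. Il11ra1 changed by -0.85 relative to Il6st (SE 0.24, interval -1.37 to -0.33, limma adjusted p = 0.0260). This call was lost in 8 of 17 alternatives, among them leaving out doxycycline 2, 3 or 4 or saline 1, 3 or 4 (adjusted p between 0.0526 and 0.0764, values -0.89 to -0.69). These were 4 comparisons against 1 shared gene, and each carries the spread of Il6st.

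**Figure D2:**
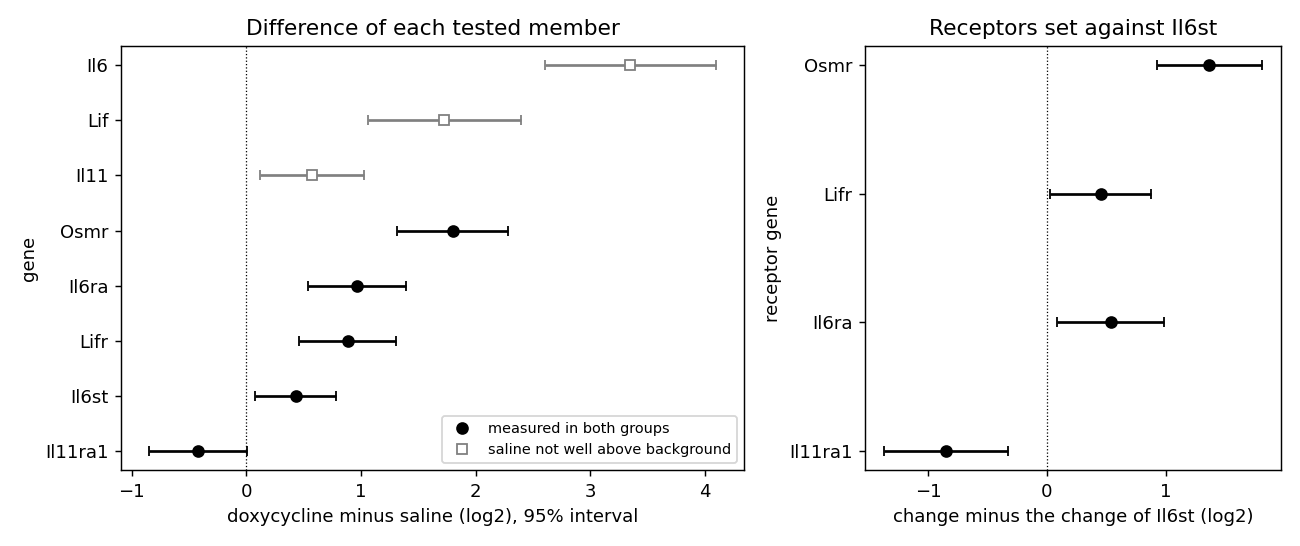
Difference of doxycycline minus saline (log2) with its 95% interval for the 8 tested members, left, and each receptor's change minus that of Il6st, right. Open squares mark members with saline not well above background, for which the fitted value is no measure of size. Osmr stands at 1.80 on the left and at 1.37 on the right, while the interval of Il11ra1 reaches 0.01 on the left and ends at -0.33 on the right.

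Genes with the most similar profile were sought by the root mean square difference of levels centred over the 8 arrays. Clone, predicted and sex-linked names were left out of this search. Nearest to Osmr were Retnlb (0.174), which encodes a goblet cell peptide, Ctla2a (0.183) and Arhgap19 (0.197). Nearest to Il6ra were Il34 (0.109) and Csf1 (0.132), both ligands of the CSF-1 receptor, and the complement gene C4b (0.134). Nearest to Lifr were Moap1 (0.0886), Kcnk1 (0.0940) and Ifnar2 (0.107), a chain of the type I interferon receptor. Il6 lay nearest to Lhx2 (0.253), Ifi205 (0.337) and Gbp2 (0.349), and Lif to Plekhg4 (0.192), Prg4 (0.249) and Fgfr4 (0.254), with saline values of Il6 and Lif that carry no level. Arhgap19, Lhx2, Plekhg4 and Prg4 were themselves not well above background on all 8 arrays, so their profiles rest in part on dim values. With normexp Arhgap19 turned to -0.12.

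The promoters of Il6 and Osmr are printed because Il6 is the 1 ligand for which a bound could be given and Osmr the receptor gene with the largest difference. They are the 250 bases before the start site from RefSeq, build GRCm38.p6, with motif matches in capitals.
Il6, chr5:30012864-30013113, plus strand: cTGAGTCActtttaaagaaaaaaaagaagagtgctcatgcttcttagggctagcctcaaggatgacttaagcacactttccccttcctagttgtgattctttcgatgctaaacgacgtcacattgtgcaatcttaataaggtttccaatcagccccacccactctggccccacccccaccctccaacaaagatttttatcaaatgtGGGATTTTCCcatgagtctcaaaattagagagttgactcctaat
Osmr, chr15:6874314-6874563, minus strand: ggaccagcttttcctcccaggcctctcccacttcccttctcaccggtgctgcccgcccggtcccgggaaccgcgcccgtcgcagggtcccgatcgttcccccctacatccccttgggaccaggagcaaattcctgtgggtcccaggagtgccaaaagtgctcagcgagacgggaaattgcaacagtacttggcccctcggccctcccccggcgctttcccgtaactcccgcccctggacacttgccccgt
Both strands were searched for the STAT motif TTCNNNGAA, the AP-1 motif TGANTCA and the NF-kB motif, in 11 promoters of 8 members. The Il6 window held an AP-1 match at -249 to -243 and an NF-kB match, GGGATTTTCC, at -44 to -35 from the start site. Lif held an AP-1 match at -228 to -222 and Il11 one at -98 to -92. No match to these letters lay in the windows of the 5 receptor genes, and the STAT letters were in none of the 11. Of 32841 promoters, 7.02% held the STAT, 6.75% the AP-1 and 3.9% the NF-kB letters. A match is a description of letters only.

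The other ligands of the family gave mixed values. Of 6 tested, 2 were called higher and 1 lower, with a median difference of -0.05. Ctf1, encoding cardiotrophin 1, fell 2.30-fold (-3.04 ± 0.26 against -1.83 ± 0.29, SD, n = 4 each, limma adjusted p = 0.00665) and kept its call in every alternative. Cntf, the ciliary neurotrophic factor, rose 1.77-fold (limma adjusted p = 0.0343) but lost its call in 7 of 19 alternatives, among them leaving out doxycycline 3 or 4 or saline 1, 2 or 3 (adjusted p up to 0.105). Clcf1, a ligand of the CNTF receptor, was called with saline not well above background and is given no fold. Its call was lost in 9 of 18 alternatives, among them leaving out doxycycline 2, 3 or 4 or saline 1 or 3. Neither Cntfr nor Il27ra, the other 2 receptors tested, passed (limma), and 0 of them had an unadjusted p under 0.05.

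Of 13 signal carriers downstream of gp130, 1 was called higher and 0 lower, a share near the 5.94% called higher among all genes, and the median difference was 0.06. The 1 was the adaptor Gab2, with saline not well above background. The Gab2 call was lost in 7 of 18 alternatives, among them leaving out doxycycline 3 or 4 or saline 1. Stat3 stood at 4.92 ± 0.13 in the doxycycline group and 4.68 ± 0.10 in the saline group (SD, n = 4 each, limma adjusted p = 0.281), with overlapping groups.

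Among genes listed as inhibitors of the pathway, Usp18, Socs1, Cish and Socs3 led the calls. Of 10 tested, 5 were called higher and 0 lower, with a median difference of 0.88 against 0.02 over all genes. Socs1, a Janus kinase inhibitor, rose 6.18-fold (limma adjusted p = 0.00092), and Cish rose 2.23-fold (adjusted p = 0.00533). Usp18, counted in the list although it is known for restraining interferon receptor signalling and not gp130, rose 12.2-fold (limma adjusted p = 0.0005). These 3 genes passed in all 19 alternatives. Socs3, which binds gp130, rose 3.63-fold (5.61 ± 0.33 against 3.75 ± 0.92, SD, n = 4 each, limma adjusted p = 0.0216). Its call was lost without doxycycline 3 or 4 or saline 1 or 3 (adjusted p up to 0.0643). The phosphatase gene Ptpn1, named after its values were seen, was called at 1.94-fold and lost the call in 10 of 19 alternatives, among them leaving out doxycycline 2, 3 or 4 or saline 1, 3 or 4.

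Genes listed under receptor shedding, which include regulators of the sheddases, gave 0 calls among 7 tested with limma, 3 of them with an unadjusted p under 0.05. Rhbdf2, which carries the sheddase ADAM17 to the surface, came closest (0.79, limma adjusted p = 0.0511), and passed in 9 of 19 alternatives, among them leaving out doxycycline 1 or saline 4.

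Among STAT3 target genes 6 of 24 were called higher and 1 lower, with a median of 0.44. The protease inhibitor gene Timp1 rose 5.97-fold (limma adjusted p = 0.00203), Hif1a 3.06-fold, Il4ra 2.45-fold and the kinase gene Pim3 2.40-fold, and all 4 passed in every alternative. Bcl3, named after its values were seen, was the 1 gene that fell (1.85-fold, limma adjusted p = 0.0279), a call lost in 7 of 19 alternatives, among them leaving out doxycycline 3 or 4 or saline 1, 3 or 4. Of 17 acute-phase genes 5 were called higher and 0 lower, with a median of 0.99 (range -2.38 to 4.61), or 0.95 over the 16 measured in both groups. They were Serpina3n, Lcn2, Saa3, Lbp and Cp, of which Lbp (1.65-fold) and Cp (1.89-fold, named after its values were seen) lost their calls in 8 and 11 of 19 alternatives. For Lbp these included leaving out any doxycycline array or saline 1, 3 or 4, and for Cp doxycycline 2, 3 or 4 or any saline array. Saa1 and Saa2, the brightest of the list and named after their values were seen, did not pass (0.68 and 0.37, limma adjusted p = 0.315 and 0.327).

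Epithelial repair genes went in both directions. Of 12 tested, 3 rose and 1 fell, with a median of 0.36, or 0.01 over the 11 measured in both groups. The growth factors Areg and Ereg rose 10.6-fold and 2.62-fold, and the stem cell antigen gene Ly6a 8.13-fold, whereas the goblet cell peptide gene Tff3 fell 2.24-fold, with limma adjusted p of 0.005 or less for each. Of 10 upstream inducers of Il6 transcription 2 were called higher and 0 lower, the adaptor Myd88 (2.21-fold, limma adjusted p = 0.00422) and Tnf (3.05-fold, limma adjusted p = 0.00739), the latter well above background on 3 of 4 saline arrays.

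**Figure D3:**
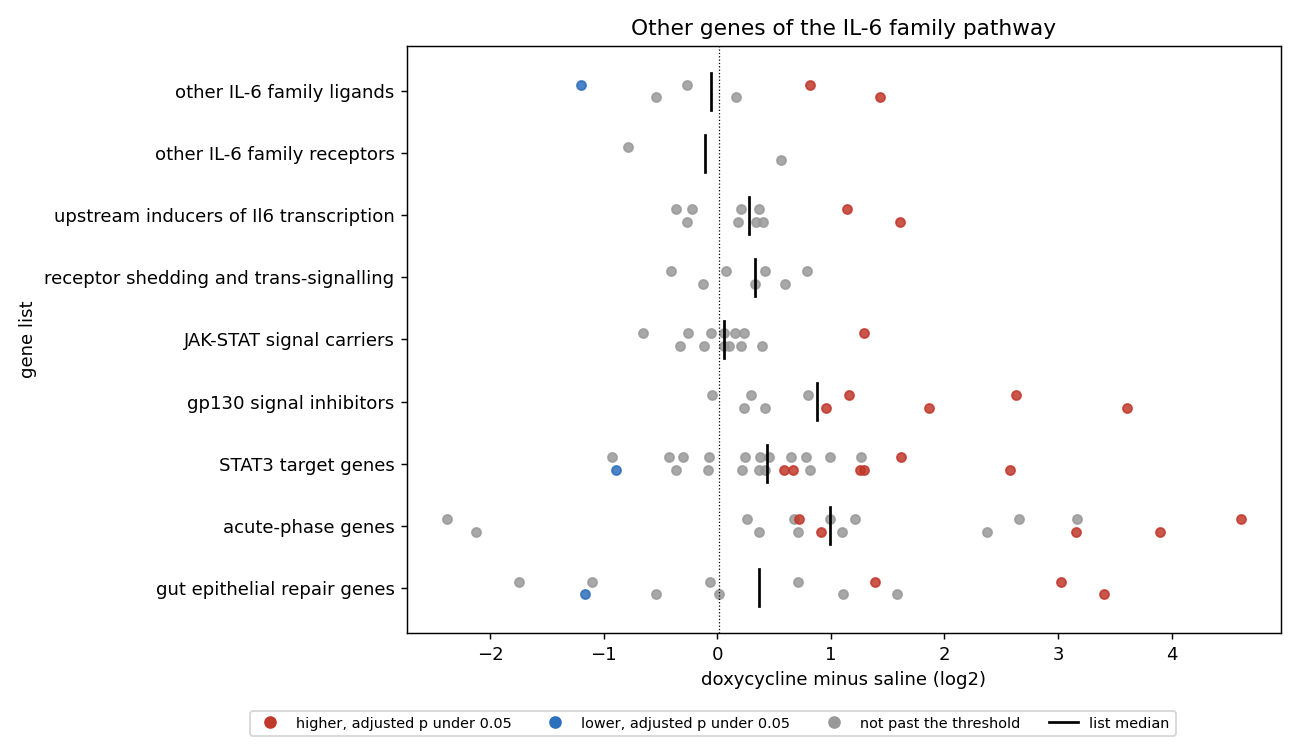
Difference of doxycycline minus saline (log2) for each tested gene of 9 lists around the IL-6 family, red for genes called higher, blue for genes called lower, grey for genes not past the threshold, and a bar at the list median. The listed inhibitors, Usp18 among them, have their median at 0.88 and the signal carriers at 0.06.

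Markers of cells that make or receive these cytokines moved unevenly. Among fibroblast markers 2 of 9 were called higher (Pdgfra 2.36-fold and Pdgfrb 1.76-fold) and 0 lower. The median difference over the 9 was -0.16, with a range from -0.92 (Col3a1, not called) to 1.24 (Pdgfra). The brightest of them, Dcn, was not called (0.301, limma). The summed level per array, on a linear scale, spanned 110 to 144 with doxycycline and 103 to 156 with saline. The Pdgfra call was lost without doxycycline 4 or saline 3, and the Pdgfrb call without any 1 array other than doxycycline 3. Among macrophage and monocyte markers 1 of 7 rose, Mrc1 (2.06-fold), and 1 fell, Adgre1 (1.93-fold), with sums of 55.4 to 72.9 and 37.1 to 56.5. The Adgre1 call was lost without doxycycline 3 or 4 or saline 1 or 3. Among neutrophil markers 2 of 4 were called higher, S100a9 (6.02-fold) and S100a8 (at least 3.58-fold), with overlapping groups for both, sums of 100.2 to 137 and 99.9 to 105, and Cxcr2, Mmp8 and Ngp well above background on at most 1 array. These sums are made up almost wholly of the brightest gene, Csf3r, at 6.93 with doxycycline and 6.67 with saline. Csf3r did not pass (0.25, limma adjusted p = 0.282). The calls of S100a9 and S100a8 were both lost without doxycycline 3 or 4 or saline 1, 3 or 4, and that of S100a9 also without doxycycline 2. T and B cell markers had 0 of 8 called (limma, 2 with an unadjusted p under 0.05), with sums of 41.9 to 96.8 and 14.2 to 92.0. Without saline 2 the B cell gene Cd79b passed as higher (2.85, limma adjusted p = 0.00468). Of 6 endothelial markers Selp alone was called higher, with saline not well above background, while 0 of 6 smooth muscle, 0 of 8 enteric neuron and glia and 0 of 10 enterocyte markers passed (limma, with 0, 1 and 2 at an unadjusted p under 0.05). Pdgfrb, Adgre1 and S100a8 were named after their values were seen. The part of these cells in the changes of Il6, Osmr, Il6ra and Lifr was not tested.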

How the data were processed

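Total RNA from mouse ileum was labelled (200 ng each) and measured on 8 Agilent 1-colour arrays. The deposited scanner files hold spot intensity from Agilent Feature Extraction 10.7.3.1, background-subtracted and detrended per the file headers, with 0 or 1 flags for spots well above background. The authors' deposited value table holds log2 values that equal the log2 processed intensity minus a constant of each array, with no gene centring and the same direction. Its column medians were -3.77, -3.92, -3.83 and -3.81 for doxycycline and -3.97, -3.70, -3.79 and -3.86 for saline. It served as an alternative only.

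Outlier spots were left out, spots of a probe were averaged, and each array's 75th percentile of log2 intensity was subtracted. Probes well above background on at least 4 of 8 arrays were kept (28626), and a gene was its kept probe of highest mean (21362 genes). The test was limma 3.58.1 under R 4.3.3 (lmFit, eBayes, two-sided, Benjamini-Hochberg over all genes, threshold 0.05), tested on simulated data. A probe below background in a group has only a bound, and bounds under 1 are not given. The bound takes the lowest level counted as well above background on each array, or the probe's own level where higher. It is no strict limit, since a probe can lie above that lowest level without being counted. Members and lists were chosen with earlier results of these data known. The rule for names takes the members, up to 4 genes of smallest p per pathway list, the gene of smallest p and the brightest per cell type list, and the 3 nearest profiles per called member. A few names under this rule are left out of the text. Alternatives changed the background correction, filter, floor, normalization, probe summary, weights, block and arrays used.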

Additional observations from a re-analysis of the deposited data

Results flagged for a closer look

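In groups of 4 arrays, a gap of 1 array to the rest beyond Dixon's critical value was looked for in 170 groups, and 5 stood apart, 0 of them in a member. Chance sets apart about 1 in 20 groups. Saline 4 stood above the other saline arrays for the sheddase gene Adam10 (4.51, others 3.93 to 3.99), for Rhbdf2 (2.01, others 1.25 to 1.35) and for Fabp6 (9.77, others 9.33 to 9.36). Saline 2 stood above the others for S100a8 (-2.53, others -5.23 to -4.78, none well above background). Doxycycline 4 was the lowest for Prg4 (-4.06, others -3.08 to -3.02).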

How the results depend on the processing

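Each result was recomputed under up to 19 alternatives, 1 of them, the highest common floor, chosen after seeing the data. Osmr (1.65 to 1.95) kept its call, and Il11ra1 stayed uncalled, in all 19. Leaving out 1 array at a time gave 648 to 1541 genes higher and 729 to 1870 lower, and 4 to 7 members called higher. These counts of members include the dim ligands Il6 and Lif, and without doxycycline 1 also Il11. The differences were 0.45 to 0.72 for Il11, 0.79 to 1.04 for Lifr and 0.35 to 0.53 for Il6st, and -0.99 to -0.69 for Il11ra1 minus Il6st. The replicate number is also the slide column, and the check of pairing gave same-number correlations of 0.006, -0.04, 0.11 and 0.01, so the numbers were not taken to pair the samples. With the replicate block 787 genes were higher and 905 lower, Il6ra kept 0.97 (limma adjusted p = 0.0518) and Il11ra1 minus Il6st -0.85 (0.0552). With array weights 2929 were higher and 3400 lower, Il11 (0.62), Il6st (0.45) and Lifr minus Il6st (0.49) passed. Without a filter 11809 genes were lower, 13.5% of calls being higher. Without saline 2 and 4 together 1027 genes were lower and 3 members were higher, namely Il6, Lif and Osmr. Of these only Osmr was measured in both groups. Lifr (0.85), Il6ra (0.90) and Il11ra1 minus Il6st (-0.75) missed the threshold. With the filter on all 8 arrays 3 members were higher, namely Osmr, Il6ra and Lifr. With normexp Il11 turned to -0.095, Lif was 0.25 and missed, and Il6ra minus Il6st was 0.66 and passed. With the median floor Lif was 0.79 and missed. With the highest floor 3 members were higher, Il6 was 0.95 and Lif 0.075, both missing, and Il6ra minus Il6st was 0.54 and passed. With the mean of probes Lifr minus Il6st was 0.67 and passed. With 1 array left out, Kdr spanned -0.36 to 0.13, Ctrb1 -0.19 to 0.0030, Tagln -0.35 to 0.066 and Ebi3 -0.063 to 0.46. Signs turned for dim or uncalled genes: Selp (-0.025), Kdr (0.017) and Arhgap19 (-0.12) with normexp, and Itgam with the mean of probes (-0.084). The cause of these changes was not tested. The number of arrays and the signal over background limit what could be seen for the ligands.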
